A study of Mus musculus with 2 samples.

Results

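Desmosome genes and 2 mesenchymal cadherins were read in Tie2Cre lineage cells that had been sorted from embryonic mouse hearts. The 7 genes were chosen by symbol, with the log2 ratios of mutant over control on these same arrays in view, so every difference below is a description and none was tested. The 5 desmosome genes were Dsp, Jup, Pkp2, Dsg2 and Dsc2, and the cadherins were Cdh2 and Cdh11. They were represented by 20 of the 34945 probe sets that name a single gene, which cover 18193 genes in all.

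The mutant array held cells of Tie2Cre;Tbx20 loxP/- hearts, and the control array cells of Tie2Cre;Tbx20 +/loxP hearts, both at embryonic day 12.5, with 1 array per genotype. Tbx20 encodes a T-box transcription factor active in heart development. Both genotypes carry the Tie2Cre transgene, which recombines loxP sites in endothelium, endocardium, their mesenchymal descendants in the cushions, and blood. Control cells keep an intact Tbx20 allele, whereas the second allele of the mutant embryos is null in every cell, inside and outside the lineage. Live lineage cells lacking the blood markers CD41, CD45 and Ter119 had been collected by flow cytometry, and the labels do not say whether embryos were pooled.

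A desmosome is a junction that fastens the intermediate filaments of neighbouring cells to each other. Its desmosomal cadherins, the desmogleins and desmocollins, meet in the gap between the cells, the armadillo proteins plakoglobin and plakophilin bind their tails, and desmoplakin ties this plaque to the filaments. In the heart, desmosomes are best known from the intercalated discs of cardiomyocytes, and desmoplakin also occurs with VE-cadherin and plakoglobin in junctions of some endothelia. N-cadherin and cadherin 11 are classical cadherins of mesenchymal cells, and N-cadherin is in addition the classical cadherin of cardiomyocytes.

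The values are MAS5 signals, a linear intensity for each probe set. A probe set counted as measured where it lay above the floor, the median signal of the array, which was 82.4 in the mutant and 91.3 in the control. Of the 20 probe sets, 16 were measured on both arrays, 2 lay above the floor in the mutant only and 2 lay below it on both. The 6 genes other than Dsc2 were measured. Both arrays had a trimmed mean of 500.003. All 18 hybridisation spike probe sets were lower in the mutant (mean log2 ratio -0.45). The ratio of 3' to 5' signal for Gapdh, which reflects RNA quality, was 1.64 in the mutant and 2.27 in the control, and that for Actb was 0.998 in the mutant and 0.989 in the control. Tbx20 read 6416, 4245 and 5262 in the mutant on its 3 probe sets, against 7638, 7050 and 6128 in the control, and it is not known here whether these probes lie in the deleted part. The part of RNA quality and of the spikes in any difference below was not tested.

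Error between animals cannot be had from 1 array per genotype. In its place stands the SD of log2 ratios between probe sets of the same gene, which covers probe error only. It was 0.45 over 438 genes with a mean signal under 200, 0.37 over 3198 genes from 200 to 1000 and 0.28 over 1538 brighter genes.

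Desmoplakin was lower in the mutant by more than 2-fold, while Jup, Pkp2 and Dsg2, the other desmosome genes measured, stayed within 2-fold. The promoters of Dsp and of Jup, which encodes plakoglobin, are shown because Tbx20 is a T-box factor. Of the 7 genes, 2 matched an entry in the promoter table used here, Dsp and Jup, and this match, not their ratios, fixed the pair. Each line gives the 250 bases before the annotated start, 5′ to 3′ on the gene's strand, from RefSeq on GRCm38.p6. Capitals mark AGGTGTG, the core of the sequence that T-box factors bind, searched on both strands.
Dsp, chr13:38151044-38151293, plus strand: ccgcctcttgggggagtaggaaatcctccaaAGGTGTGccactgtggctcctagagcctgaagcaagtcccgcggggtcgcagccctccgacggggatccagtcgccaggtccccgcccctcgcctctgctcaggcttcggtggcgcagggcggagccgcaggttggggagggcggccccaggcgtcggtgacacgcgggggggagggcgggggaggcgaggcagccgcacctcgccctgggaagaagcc
Jup, chr11:100397791-100398040, minus strand: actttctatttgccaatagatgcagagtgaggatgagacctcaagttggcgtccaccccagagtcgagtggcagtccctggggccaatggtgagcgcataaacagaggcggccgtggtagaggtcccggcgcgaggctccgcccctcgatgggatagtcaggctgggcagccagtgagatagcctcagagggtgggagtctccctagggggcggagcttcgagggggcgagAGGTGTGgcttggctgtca
Both promoters held AGGTGTG once, on the gene's own strand, beginning 219 bases before the start in Dsp and 19 bases before it in Jup. The same letters were found in 5.10% of the 32851 promoter windows of this length. CAGGTG, an E-box bound by Snail proteins, was found in neither window and in 17.2% of all windows. The motifs can overlap by the shared letters AGGTG. A match is a string of letters in a window and does not show a bound site.

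Dsp, which encodes desmoplakin, read 283 in the mutant and 1007 in the control on its brightest probe set. On the next it read 263 in the mutant and 523 in the control. The log2 ratios were -1.83 and -0.99, so the signal in the mutant was 28.1% and 50.4% of that in the control. Both measured probe sets were lower in the mutant by more than the probe error of their brightness class. They were made from the same sequence record and are not independent readings. The ratios differ from each other by 0.84, and 9.26% of the 3034 genes with 2 measured probe sets had a pair at least as far apart. The remaining Dsp probe set read 57.8 in the mutant and 64.6 in the control, under the floor on both, and gives no ratio. In sorted cells, fewer cells that express a gene and less of its RNA in each cell cannot be told apart.

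Of the 6 measured genes, 1 was lower in the mutant by at least 2-fold, namely Dsp, and 0 were at least 2-fold higher. Over all 10665 measured genes, 1.46% were at least 2-fold lower and 0.647% at least 2-fold higher. Within the brightness class of Dsp, 1.37% of 4969 genes were at least 2-fold lower. By its brightest probe set Dsp was the sixth lowest gene of all, since 0.0563% of measured genes had a ratio at or below it. Averaged over its measured probe sets, its ratio was -1.41 (SD 0.59, n = 2 probe sets), and it ranked 6 from the lowest of 5174 genes with several measured probe sets. A mean at least 2-fold lower was found for 0.464% of those genes. The genes were picked knowing that Dsp was low, so these ranks only say where it lies.

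**Figure D1:**
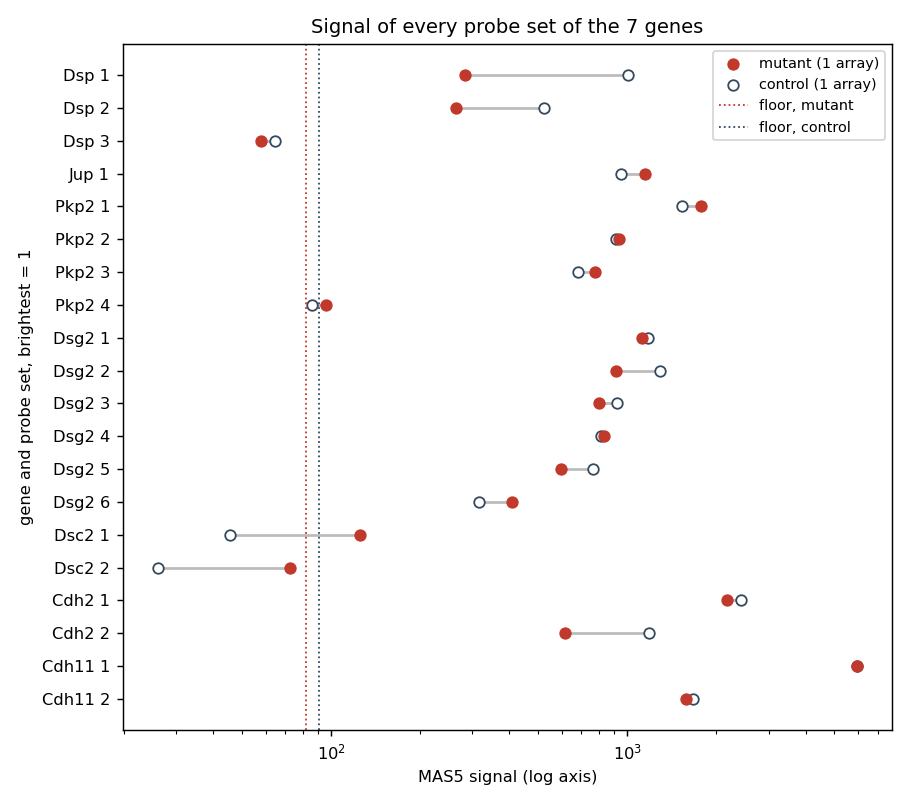
MAS5 signal on a log axis for each of the 20 probe sets, numbered within a gene from the brightest, with the mutant array as filled and the control array as open circles and the floors as dotted lines. The wide gaps are those of Dsp, where the mutant lies at 283 and 263 and the control at 1007 and 523, of the second Cdh2 probe set, and of Dsc2 around the floor.

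The armadillo genes of the plaque differed between the arrays by no more than about their probe error. Jup read 1152 in the mutant and 949 in the control, a log2 ratio of 0.28 on its single probe set, which is equal to the probe error of its class to 2 decimals. Jup also takes the place of beta-catenin in adherens junctions.

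Pkp2 encodes plakophilin 2, the plakophilin of cardiac desmosomes. Its 3 measured probe sets read 1770, 939 and 776 in the mutant, against 1535, 916 and 680 in the control. The log2 ratios were 0.21, 0.03 and 0.19, a mean of 0.14 (SD 0.09, n = 3 probe sets), and each is smaller than its probe error. The ratio of 0.03 became -0.01 after one of the rescalings. The fourth probe set read 96.2 in the mutant and 85.9 in the control, above the floor in the mutant only and at least 1.05-fold higher there. Thus all 4 probe sets were on the same side of 0 as deposited, at a distance that probe error alone would cover. The brightest and the third were made from the same sequence record, so the 4 are not independent readings.

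Dsg2, the desmoglein found in the heart, was read by 6 probe sets, more than any of the other members. They gave 1118, 918, 800, 834, 599 and 410 in the mutant, against 1171, 1293, 922, 818, 767 and 315 in the control. The log2 ratios ran from -0.49 to 0.38, with 4 lower and 2 higher, a mean of -0.12 (SD 0.31, n = 6 probe sets). The probe sets of Dsg2 therefore set no direction, and 1 of those that read higher, at 0.03, turned to the other side of 0 after quantile or loess scaling. Some share a source sequence, so the 6 are not independent.

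Dsc2, the desmocollin found in the heart, was not measured on both arrays. It read 125 in the mutant and 45.4 in the control on its brighter probe set, where the control lies under the floor. Taken against that floor, Dsc2 was at least 1.37-fold higher in the mutant. The other probe set read 72.8 in the mutant and 25.9 in the control, under the floor on both arrays. Both probe sets read higher in the mutant, with too little signal in the control for a fold.

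Among the 4 measured desmosome genes, 2 were lower and 2 higher. Their median log2 ratio was 0.07, against -0.01 over all genes. Without Dsp, the 10 measured desmosome probe sets lay between -0.49 and 0.38, with 4 lower and 6 higher, and 0 of them reached 2-fold in either direction. Over all measured probe sets 1.46% were at least 2-fold lower and 0.773% at least 2-fold higher. The products of all 4 genes sit in the same plaque. The lowest of these 10 ratios, the -0.49 of a Dsg2 probe set, and the -0.99 of the dimmer measured Dsp probe set have overlapping bars of 1 SD of probe error.

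**Figure D2:**
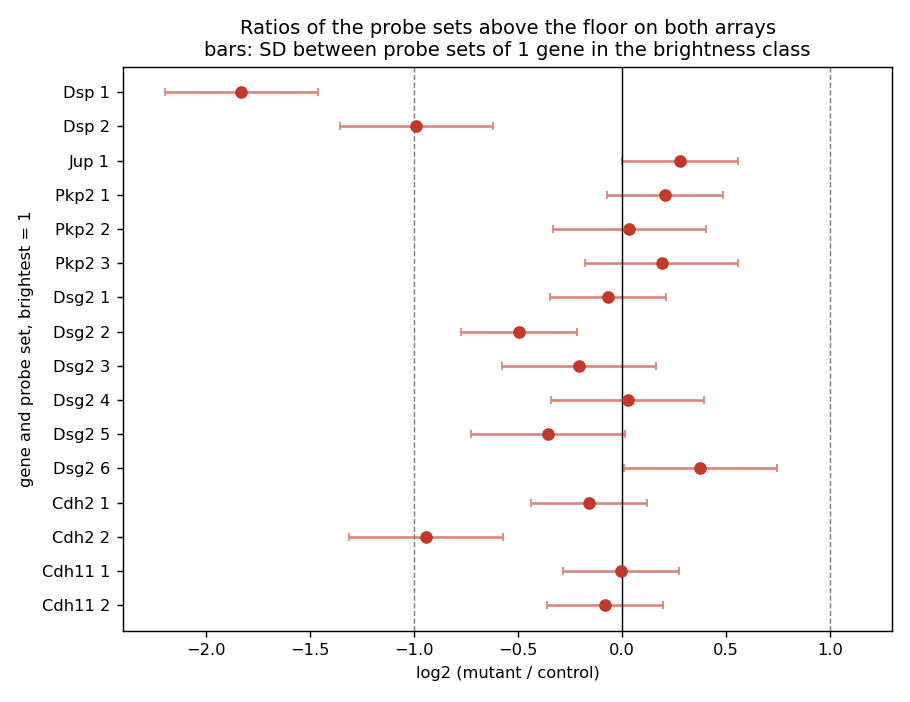
Log2 ratio of mutant over control for the 16 probe sets measured on each array, with bars of 1 SD between probe sets of a gene in the same brightness class and dashed lines at 2-fold. Dsp lies at -1.83 and -0.99, the 10 other desmosome probe sets between -0.49 and 0.38, and the Cdh2 probe sets at -0.16 and -0.94.

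The cadherins behaved unlike each other, and for Cdh2 the probe sets disagreed. Cdh11, the cadherin of cushion and other mesenchyme, read 5968 and 1576 in the mutant, against 5989 and 1668 in the control. Its log2 ratios were 0.00 and -0.08, a mean of -0.04 (SD 0.05, n = 2 probe sets). The signals on both arrays were almost the same, and 87.0% of genes with 2 measured probe sets had a pair at least as far apart as these. The ratio of the brighter probe set turned to 0.02 after loess, so it has no direction.

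Cdh2, which encodes N-cadherin, read 2172 in the mutant and 2421 in the control on its brighter probe set, a log2 ratio of -0.16. On the other it read 614 in the mutant and 1180 in the control, a ratio of -0.94. Both were lower in the mutant, but they differ from each other by 0.79, although both were made from the same sequence record. A pair at least as far apart was found for 11.0% of genes with 2 measured probe sets. The mean of -0.55 (SD 0.56, n = 2 probe sets) thus stands for one probe set nearly level and one almost 2-fold lower.

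Over the 6 measured genes the median log2 ratio was -0.04, and 4 of 6 were lower, where 51% of all measured genes were. Of their 16 measured probe sets 10 were lower, where 50.1% of all probe sets were. In the plot of ratio against brightness, Dsp lies apart from the other members, which fall within the bulk of genes of like signal.

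**Figure D3:**
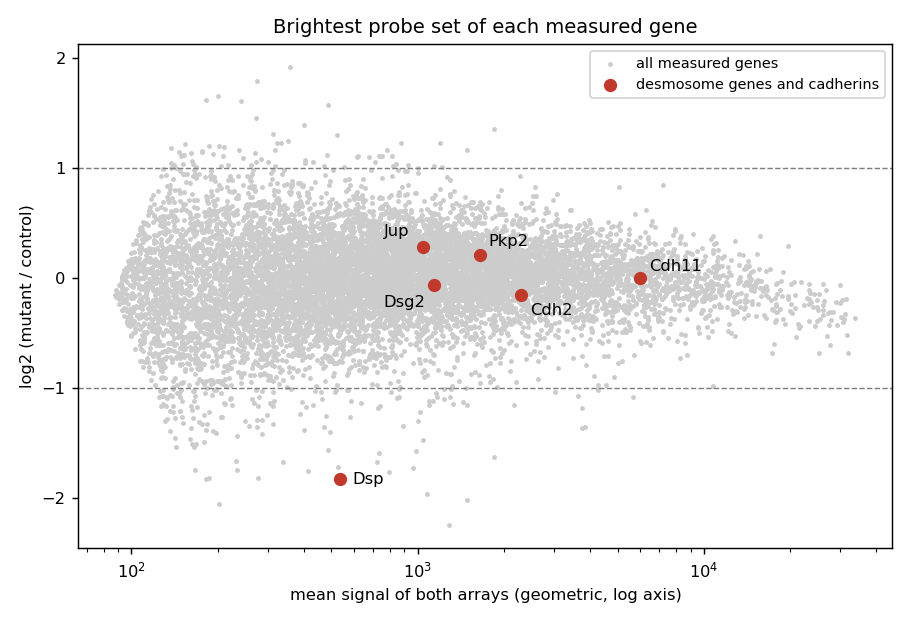
Log2 ratio of mutant over control against the geometric mean signal of both arrays (log axis) for the brightest probe set of each of 10665 measured genes, with the 6 measured members in red. Dsp lies at -1.83, while the other members lie between -0.16 and 0.28.

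The genes of most similar ratio were looked up for Dsp and for Cdh11, as the nearest mean ratio over measured probe sets among 5174 genes. With 2 arrays a pattern is a single ratio, so the likeness is weak. For Dsp they were Egln3, an oxygen-dependent prolyl hydroxylase, at -1.35, Dlg2, a scaffold protein, at -1.50, and Rab11fip5, a Rab11-binding protein, at -1.31. For Cdh11 they were Arsb, Ube2a and Trip4, all at -0.04, out of 781 genes within 0.05 of its value.

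Some of the genes are neighbours. In the reference gene table of GRCm38.p6, Dsc2, Dsg2 and Cdh2 lie on chromosome 18, where 6 further desmosomal cadherin genes, Dsc1, Dsg1c, Dsg1a, Dsg1b, Dsg4 and Dsg3, stand between Dsc2 and Dsg2. Dsc3 lies between Cdh2 and Dsc2. Of these 7 others, Dsc1, Dsc3, Dsg1a and Dsg1b had a probe set of their own, and all 4 were under the floor on both arrays. Cdh11 lies between Cdh8 and Cdh5 on chromosome 8. Cdh5, the VE-cadherin of endothelium, read 10975 in the mutant and 10886 in the control (log2 ratio 0.01), and Cdh8 was under the floor on both.

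Other genes of the desmosome were mostly not detected. Of 13 listed, 10 were on the array, 8 of them under the floor on both arrays, among them the epidermal plakophilins Pkp1 and Pkp3 and the plakins Ppl and Evpl. Pkp4, a relative of the plakophilins, was the 1 measured on both arrays and read 1626 in the mutant and 2755 in the control, a ratio of -0.76, with its other probe set at -0.11. Perp, a membrane protein of desmosomes, read 155 in the mutant and 74.9 in the control, at least 1.69-fold higher there by the floor of the control.

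Adherens junction and intercalated disc partners centred near 0. Of 14 measured genes, 8 were lower and 6 higher, with a median of -0.05 and 0 at 2-fold in either direction. The measured catenin genes were close to level on their brightest probe sets. Ctnnb1, the gene of beta-catenin, read 15641 in the mutant and 17403 in the control. Other measured probe sets reached 0.51 for Ctnnb1, -0.39 for Ctnna1 and -0.35 for Ctnnd1. The widest members were Cdh13, a cadherin without a cytoplasmic tail, at 0.72, Ldb3, a Z-disc protein of muscle, at 0.62, and Cxadr, a junction receptor, at -0.48. For Cdh13 the measured probe sets ran from -0.32 to 0.72.

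Of the genes listed as other classical cadherins, 3 of the 9 on the array were measured on both arrays, 2 lower and 1 higher, with 0 at 2-fold. Cdh6 was lowest at -0.73, with its other probe set at -0.47, and read 125 in the mutant and 206 in the control. Cdh3 was at -0.02. A further 2, Cdh4 and Cdh15, were above the floor in the mutant only on their brightest probe sets and read higher there. Cdh4 read 133 in the mutant and 88.9 in the control, and its 1 probe set measured on both arrays was at 0.08. Cdh15 read 119 in the mutant and 73.5 in the control. Cdh1, the E-cadherin of epithelium, was under the floor on both arrays.

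Of 8 EMT factors that regulate cadherins, all measured, 7 were lower, where 51% of all genes were. Their median was -0.37, and 0 were at 2-fold in either direction. Snai2, a repressor of cadherin genes, read 3047 in the mutant and 5643 in the control (-0.89), with its other probe set at -0.83. Twist1 was at -0.52, Snai1 at -0.48 and Zeb1 at -0.37, while Twist2 was at 0.35.

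The sorted cells bore the markers of their label, and markers of cells outside it were present too. All 8 endothelial and endocardial markers were measured, with a summed signal of 52906 in the mutant and 50432 in the control and a median ratio of 0.10. Of the 8, 6 were higher and 2 lower. Nfatc1 was lowest at -0.33, and its 5 measured probe sets ran from -1.58 to 0.16. All 8 cushion mesenchyme markers were measured and all 8 were lower on their brightest probe sets, where 51% of all genes were. For Pdgfra, at -0.13, the 3 measured probe sets ran from -0.81 to 0.20. The summed signal of the 8 markers was 28771 in the mutant and 40058 in the control, and their median was -0.51. The list, its sum and its median include Tbx20, the gene that the genotype alters. The ratios of these markers ran from -0.75 to -0.07 on their brightest probe sets, where Cdh11 was at 0.00. That gap is inside the probe error for the nearest of them, Sox9, and it was not tested.

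Markers listed for cardiomyocytes and epicardium, whose cells build desmosomes, also gave signal. All 10 cardiomyocyte markers were measured, 7 of them higher, with a summed signal of 20388 in the mutant and 16017 in the control and a median of 0.20. The other 3, Nppa, Tnnt2 and Myh6, were at -0.48, -0.24 and -0.16. Of 9 epicardial and mesothelial markers, 7 were measured and 7 of these were higher, with a median of 0.62. The summed signal of all 9, genes under the floor included, was 8608 in the mutant and 4930 in the control. Of the 7, 2 were at least 2-fold higher, Upk3b at 1.35 and Lrrn4 at 1.22, where 0.647% of all genes were. Upk1b, on its brightest probe set above the floor in the mutant only, was at least 2.95-fold higher there. Its 2 probe sets measured on both arrays were at 0.18 and 0.64. Msln was under the floor on both. The part of such cells in the ratios of the desmosome genes was not tested.

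Markers of epithelium were mostly under the floor, while erythroid signal was present on both arrays. The epithelial markers Epcam, Cdh1, Cldn6 and Krt14 were under the floor on both arrays, and the 2 measured, Krt8 and Krt18, were at 0.98 and 0.27. The summed epithelial signal, genes under the floor included, was 1096 in the mutant and 831 in the control. Of 6 erythroid markers on the array, 3 were measured and 3 of these were lower, with a median of -0.97. The summed signal of all 6, genes under the floor included, was 7431 in the mutant and 11385 in the control. Among the 3 measured, 1 was at least 2-fold lower, Klf1 at -1.10, where 1.46% of all genes were. The globin gene Hbb-y read 6606 in the mutant and 9843 in the control, and Alas2 was above the floor in the control only. Of 6 leukocyte markers, 1 was measured on both arrays, Cd68, higher at 162 in the mutant and 93.8 in the control (0.79). That control value is close to the floor of 91.3. Cx3cr1 read 47.8 in the mutant and 226 in the control, at least 2.74-fold lower by the floor of the mutant, and Csf1r was likewise above the floor in the control only, while Ptprc, which encodes CD45, was under the floor on both. The leukocyte sum, genes under the floor included, was 341 in the mutant and 501 in the control. The part of blood cells in the ratio of Dsp was not tested.

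**Figure D4:**
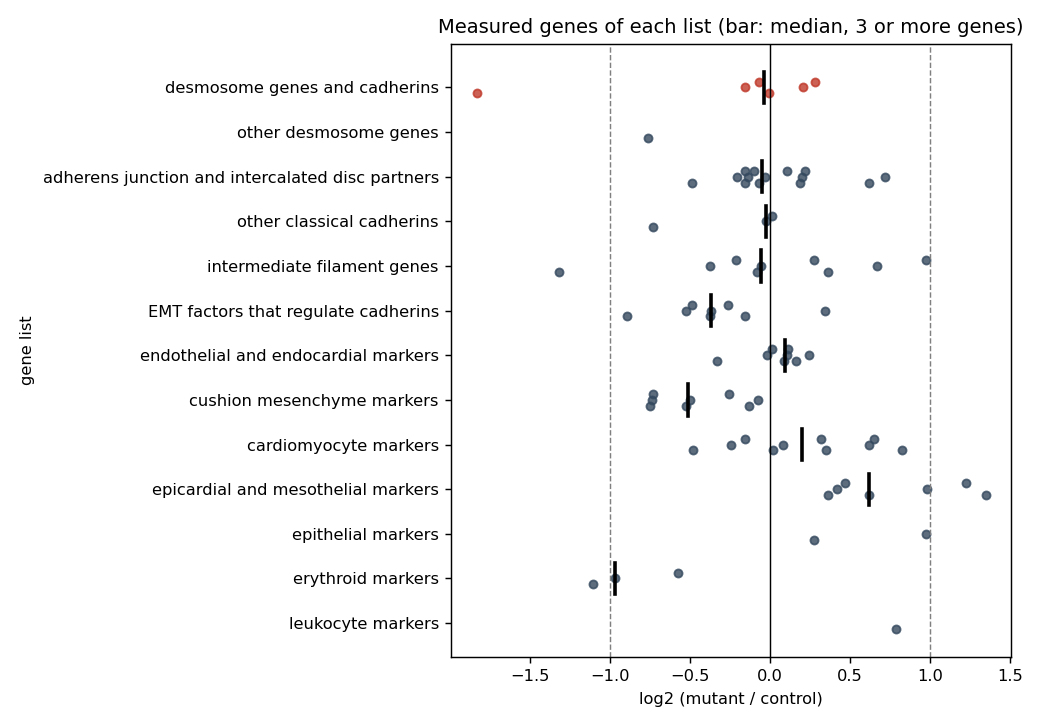
Log2 ratio of mutant over control for each measured gene of the members (red) and of the 12 related lists (dark), with a bar at the median where a list has 3 or more measured genes and dashed lines at 2-fold. Dsp lies at -1.83, farther from 0 than any listed gene, while the epicardial list has a median of 0.62 and the cushion mesenchyme list one of -0.51.

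The call on Dsp held under the scalings tried. Its ratio lay between -1.85 and -1.41 over the 7 alternatives that gave a value. The value of -1.41 came from the median over its probe sets. The lower floor and the choice of unsuffixed probe sets read the same Dsp probe set unchanged, so their -1.83 was fixed in advance. No alternative took the dimmer measured probe set of Dsp alone, which at -0.99 as deposited falls just short of 2-fold. With the floor raised to the 75th percentile Dsp was no longer measured, since its mutant signal lies under that floor. With the floor lowered to the 25th percentile Dsc2 became measured on both arrays, at 1.46.

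**Figure D5:**
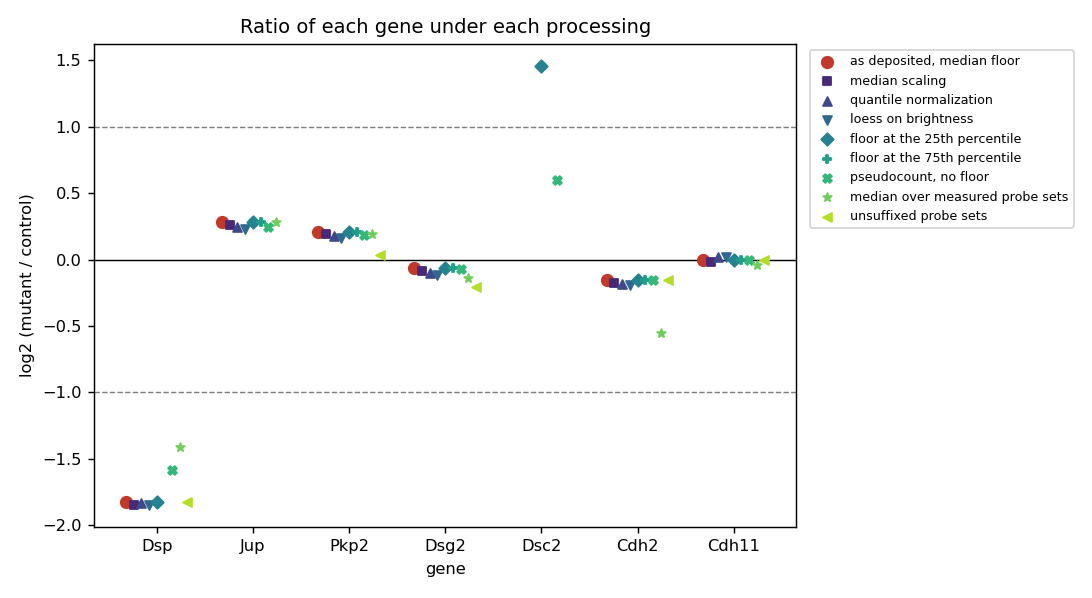
Log2 ratio of mutant over control for each gene under the processing as deposited (red circles) and under 8 alternatives (other symbols), with dashed lines at 2-fold. Dsp stays between -1.85 and -1.41 where it has a value, Cdh2 moves to -0.55 with the median over probe sets, and Dsc2 appears under a lower floor or a pseudocount.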

How the data were processed

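Expression was measured in sorted cells with 1 Affymetrix array per genotype. Per the submitters' processing notes, the authors used MAS5, which gives an intensity on a linear scale for each probe set, and the deposited intensities of each array have the same trimmed mean. Software version and genome build: not given in the sources used here.

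Of 45101 probe sets, 64 were array controls, 34945 named 1 gene by the platform annotation, 932 several and 9160 none; 34741 gene identifiers matched the reference table. Deposited values were log2-transformed without rescaling. Each gene was represented by the brightest probe set that names it alone and was measured where this lay above each array's median. With 1 array per genotype no test was made, and a call is a difference of 2-fold. The number of arrays limits the precision. Fold bounds use the floor of the dim array.

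The members and lists were chosen with earlier results of these data known. The named genes are all members, up to 4 measured genes per list with the widest ratio, and the 3 nearest in mean ratio to Dsp and to Cdh11; other list genes were named after their values were seen. Alternatives were median scaling, quantile normalization, loess (span 0.3), the array median as a pseudocount, floors at the 25th and the 75th percentile, other probe set choices, and folds of 1.5 and 3. Steps were tested on simulated data. Python 3.11.15, pandas 2.3.3 and statsmodels 0.14.6 were used.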

Additional observations from a re-analysis of the deposited data

How the results depend on the processing

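Over 8 alternatives the median ratio of the members ran from -0.16 to 0.00, and that of the desmosome genes from -0.21, with unsuffixed probe sets, to 0.21, so the desmosome median has no settled sign. With the floor at the 25th percentile, 1 member was at least 2-fold higher, Dsc2 at 1.46, which had 0.60 with a pseudocount. With the floor at the 75th percentile, 0 members were at least 2-fold lower, since Dsp was not measured. The median over probe sets gave -1.41 for Dsp and -0.55 for Cdh2. The erythroid median of -0.97, over 3 measured markers, became -0.53 with a pseudocount. That setting has no floor, so its median covers all 6 erythroid markers on the array. The added constant also changes each ratio, and the share of either in the shift was not tested. Over all genes, 156 were at least 2-fold lower and 69 higher. These counts were 537 and 233 with the lower floor, 34 and 12 with the higher floor, and 107 and 25 with a pseudocount. They were 705 and 466 at 1.5-fold, and 19 and 5 at 3-fold. Ratios of dim probe sets are limited by signal over background. No paired analysis was possible because there is 1 array per genotype.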

Other observations

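Desmoplakin anchors intermediate filaments, and the genes listed for these filaments went both ways. The list includes Plec, at -0.08, which encodes a linker protein and not a filament. Of 9 measured genes, 5 were lower and 4 higher. Their median log2 ratio of -0.05 turned to the other side of 0 in 5 of 8 alternatives. Synm, the muscle filament protein synemin, read 96.0 in the mutant and 239 in the control (-1.32), and the mutant value is close to the floor of 82.4. It was the only 1 of these 9 at least 2-fold lower, where 1.46% of all genes were. The keratin gene Krt8 read 232 in the mutant and 118 in the control (0.98), and its other measured probe set was at 0.47. Des, the desmin of muscle, read 190 in the mutant and 120 in the control (0.67). Vim, the vimentin of mesenchymal and endothelial cells, read 27117 in the mutant and 35185 in the control (-0.38), and its 3 probe sets ran from -0.47 to -0.25.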
